A study of Mus musculus with 7 samples.

Results

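The 33 genes described here are interferon-stimulated genes, which cells switch on when an interferon binds its receptor. They were chosen by name, as well-known members of the interferon response, with earlier results of these data already known. Each was found by its Ensembl identifier among the 53379 genes of the deposited count table. The cells were natural killer (NK) cells, innate lymphocytes that kill infected and transformed cells, sorted from mouse spleen as CD45+ CD3- NK1.1+ NKp46+ CD49b+ and studied directly, with no treatment or infection named in the labels. The comparison was between 4 libraries of genotype Hhex KO and 3 libraries of genotype Cre control, all on the C57BL/6 strain, and it addresses how gene expression in NK cells changes when the homeobox transcription factor Hhex is deleted. By the name of the control group its cells carry the Cre recombinase too. The labels do not give the promoter that drives Cre, the age of the mice, or whether cells of several mice were pooled.

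Interferons act in a short chain. Type I interferons (interferon alpha and beta) bind the receptor pair IFNAR1 and IFNAR2, the kinases bound to it, JAK1 and TYK2, are switched on, and a transcription factor complex that holds STAT2 and IRF9 binds the interferon-stimulated response element (ISRE) in promoters. Interferon gamma, which NK cells themselves secrete, binds another receptor and acts mainly through the gamma-activated site (GAS). The proteins that result bind or cut viral RNA, hold back virus release, attack the membranes around intracellular microbes, or restrain the response again. In NK cells type I interferon is known to raise cytotoxicity and survival, and several of these genes are also expressed at a resting level without infection.

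The ISRE, found in many of the members, is shown here in the promoters of Gbp3, Ifit1bl1 and Ifit3, which had the smallest p-values in the comparison after Ifi27l2a, together with Ifit1 and Isg15, which were added after the values were seen as familiar members of the family. Each line gives the 200 bases before the most upstream RefSeq start on GRCm38.p6, read in the direction of transcription. Capitals mark the ISRE core GAAANNGAAA on either strand. Gbp3 and Ifit1bl1 each have a further RefSeq start, which is not shown. Around that start Gbp3 held no ISRE core and Ifit1bl1 held 1. The windows are chr3:142559844-142560043 (plus strand) for Gbp3, chr19:34601969-34602168 (minus strand) for Ifit1bl1, chr19:34583329-34583528 (plus strand) for Ifit3, chr19:34640689-34640888 (plus strand) for Ifit1 and chr4:156200819-156201018 (minus strand) for Isg15.
Gbp3: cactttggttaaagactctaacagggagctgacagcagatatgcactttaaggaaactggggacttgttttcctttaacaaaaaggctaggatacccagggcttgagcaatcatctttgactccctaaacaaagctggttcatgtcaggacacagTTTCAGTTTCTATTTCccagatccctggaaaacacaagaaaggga
Ifit1bl1: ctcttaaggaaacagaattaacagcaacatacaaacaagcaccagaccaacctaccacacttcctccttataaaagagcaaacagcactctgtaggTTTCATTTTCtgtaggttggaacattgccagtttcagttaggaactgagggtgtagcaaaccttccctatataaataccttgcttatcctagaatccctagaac
Ifit3: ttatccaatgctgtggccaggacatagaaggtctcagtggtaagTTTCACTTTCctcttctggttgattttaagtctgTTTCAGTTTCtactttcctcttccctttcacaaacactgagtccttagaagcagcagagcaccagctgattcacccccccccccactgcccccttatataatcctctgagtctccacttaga
Ifit1: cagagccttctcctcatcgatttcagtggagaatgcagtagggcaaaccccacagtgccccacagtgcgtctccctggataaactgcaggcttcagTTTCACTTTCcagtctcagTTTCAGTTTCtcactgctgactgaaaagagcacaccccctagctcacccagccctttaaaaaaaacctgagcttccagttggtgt
Isg15: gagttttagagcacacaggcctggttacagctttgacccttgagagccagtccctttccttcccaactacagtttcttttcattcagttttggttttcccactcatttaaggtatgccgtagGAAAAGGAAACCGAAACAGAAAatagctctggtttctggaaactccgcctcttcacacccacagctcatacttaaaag
In Ifit3 and Ifit1 the 2 cores stood apart, beginning 156 and 122 bases before the start in Ifit3 and 104 and 85 bases before it in Ifit1. In Gbp3 and Isg15 the cores overlapped, so that a run of spaced GAAA or TTTC letters was counted 2 times in Gbp3 and 3 times in Isg15.

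RefSeq promoters were at hand for 25 of the 33 members (75.8%), matched by symbol. Ifi27l2a, Usp18, Oas2, Dhx58, Mx1, Rtp4, Zbp1 and Parp14 were not among them. Over 300 bases around the start (250 before and 50 after), 18 of the 25 members (72%) held the ISRE core in at least 1 promoter, against 3.99% of the 27025 genes in the same table. The GAS core TTCNNNGAA, searched the same way, lay in 5 of 25 members (20%), namely Isg20, Oas1a, Bst2, Igtp and Gbp7, against 9.55% of all genes. Of these, 4 held both cores in one promoter, and the cores overlapped in Bst2. A match is a description of letters and not of binding. The members with an ISRE core had a median log2 fold change of 0.21 (range −0.29 to 1.02, n = 18), and the 7 without one had a median of −0.14 (range −0.22 to 0.25). The ranges overlapped, and the difference between these groups was not tested. Members without a RefSeq promoter are in neither group, among them Ifi27l2a at 1.45 and Usp18 at −0.28.

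Most of the interferon-stimulated genes differed little between Hhex KO and Cre control NK cells, to a degree like that of all genes tested. The 5 with the smallest p-values were higher in Hhex KO, and those next by p went either way. No member passed an adjusted p of 0.05 in edgeR's quasi-likelihood test, where 4.56% of the 12161 genes tested did. Oas2 was too low to be tested, so all counts that follow are over 32 members. At an unadjusted p below 0.05 there were 5 members, Ifi27l2a, Gbp3, Ifit1bl1, Ifit3 and Ifit3b, and all of them were higher in Hhex KO. That is 15.6% of the members, against 18.5% of all genes tested, so the share of small p-values among the members was not above the background. Next by p, Oas1a and Ifit1 were higher in Hhex KO, while Ifih1, Dhx58 and Usp18 were lower. Of all genes called at an adjusted p below 0.05, 326 were higher and 228 lower. These are bulk samples, in which fewer cells of a type and less RNA per cell cannot be told apart. DESeq2 called Ifi27l2a alone, where it called 9.0% of all genes, and limma-voom called no member and 4.77% of all genes.

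Levels are given as CPM, read counts scaled to a common library size (TMM-scaled counts-per-million), in Cre control replicates 1, 2 and 3 and then in Hhex KO replicates 1, 2, 3 and 4. Differences are on the log2 scale, Hhex KO relative to Cre control, each with a standard error (SE), and adjusted p-values are Benjamini-Hochberg values of the edgeR test over all genes tested (n = 3 and n = 4). A gene is called changed when its adjusted p is below 0.05. Across the members the log2 fold change ran from −0.29 to 1.45 with a median of 0.11, beside a median of 0.018 over all genes tested. A positive value was found for 21 members and a negative one for 11. The share of positive values was 65.6% in the members and 52.7% in all genes tested. The size of the differences was like that of the transcriptome, with a median absolute log2 fold change of 0.20 in the members as in all genes. In 6 members the libraries of the groups did not overlap, 5 with Hhex KO above (Ifi27l2a, Gbp3, Ifit1bl1, Ifit3b and Oas1a) and 1 below (Dhx58). That is 18.8% of the members, against 19.3% of all genes tested.

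The data also bound the size of the differences. For 29 of the 32 members the 95% interval of the log2 fold change lay within −1 and 1, so that a doubling or a halving was outside it, and for 14 it lay within a 1.5-fold change. The exceptions to the first were Ifi27l2a, Ifit3b and Mx1. Among all genes tested the interval lay within −1 and 1 for 72.1%.

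**Figure D1:**
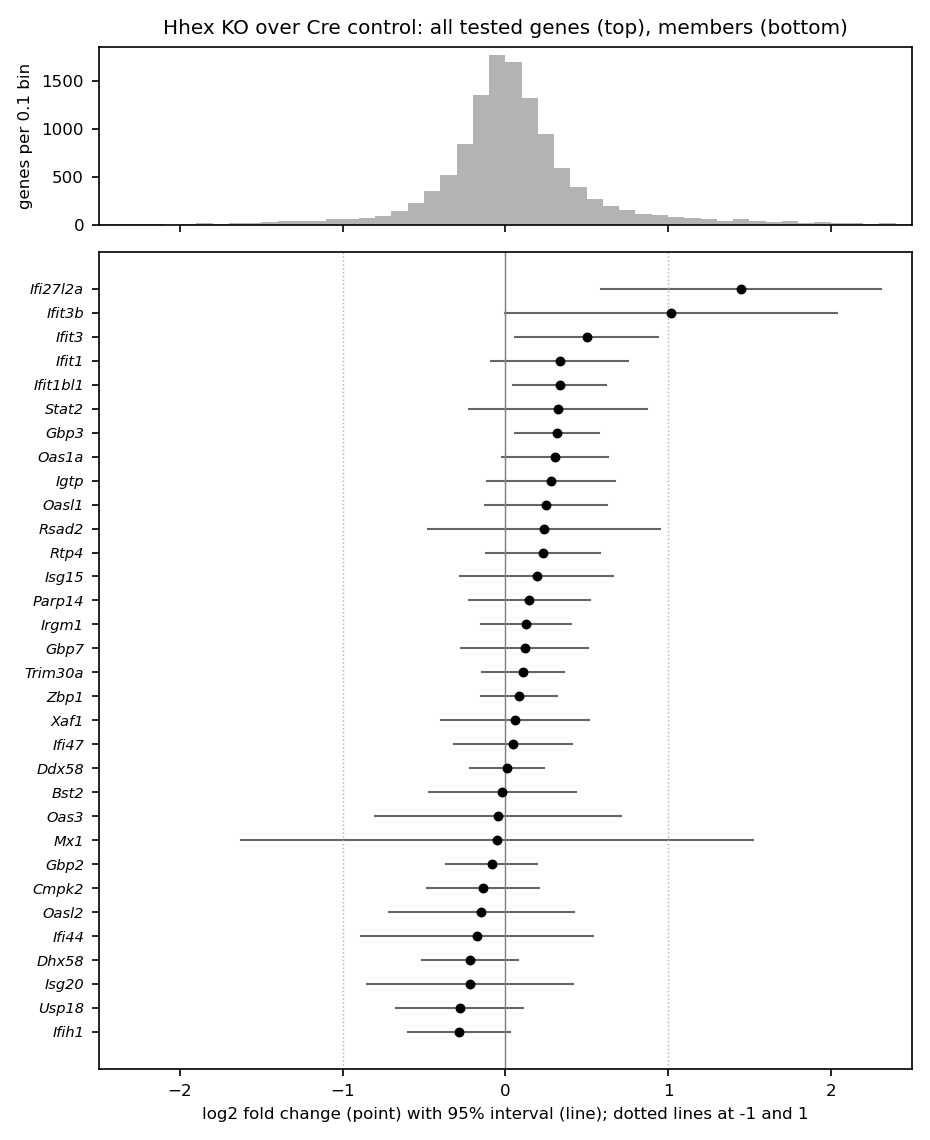
Log2 fold change of Hhex KO over Cre control for the 32 tested members (points) with its 95% interval from the edgeR fit (lines), under a histogram of the log2 fold changes of all genes tested (number of genes per bin of 0.1; 81 genes beyond ±2.5 are not drawn). Ifi27l2a at 1.45 and Ifit3b at 1.02 stand to the right, and the intervals of 29 members lie between the dotted lines at −1 and 1.

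Ifi27l2a had the smallest p of all members. It encodes a small hydrophobic protein of the ISG12 family, which interferon induces strongly in many mouse tissues, and it lies on chromosome 12 from 103442167 to 103443680. It was read at 2.02, 3.08 and 1.35 CPM in Cre control and at 4.79, 7.96, 6.89 and 3.45 CPM in Hhex KO. All Hhex KO libraries lay above all control libraries, though replicate 4 at 3.45 CPM was close to control replicate 2 at 3.08 CPM. The level is low, resting on 25 to 35 reads per control library and 39 to 139 reads per Hhex KO library. The log2 fold change was 1.45 (SE 0.38, 95% interval 0.59 to 2.31), with an adjusted p of 0.0698 in edgeR. In DESeq2 the same difference had an adjusted p of 0.00755. Leaving out Hhex KO replicate 4 gave 1.63 with an adjusted p of 0.0296 in edgeR, where 6.75% of all genes were called, and over all 7 ways of leaving out 1 library the log2 fold change ran from 1.19 to 1.79. Without a filter on low counts edgeR also called it with all 7 libraries (adjusted p = 0.0165), where 2.64% of 23248 genes were called. Hhex KO replicate 4 carries sample number 95 in the deposited table and the other libraries numbers from 20 to 28, and whether it was handled separately is not stated. The call of Ifi27l2a thus depends on the tool, the filter and that library, while its sign was positive in every fit that tested it.

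The IFIT proteins bind viral RNA and block its translation, and their genes sit side by side on chromosome 19. All 4 had a positive log2 fold change, between 0.33 and 1.02 with a median of 0.42, and none was called. Ifit1bl1, a mouse relative of Ifit1, was at 20.2, 21.2 and 19.7 CPM in Cre control and at 24.8, 22.6, 26.2 and 29.1 CPM in Hhex KO. Its groups were next to each other without overlap, with a log2 fold change of 0.33 (SE 0.13, adjusted p = 0.194). Ifit3, which stabilises the IFIT complex, was at 7.19, 6.16 and 5.94 CPM in control and at 7.12, 8.59, 10.6 and 10.1 CPM in Hhex KO, where replicate 1 fell within the control range. Its log2 fold change was 0.50 (SE 0.19, adjusted p = 0.206).

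Ifit3b, a near copy of Ifit3, was barely expressed. It was at 0.52, 0.18 and 0.70 CPM in control and at 0.91, 0.92, 1.18 and 0.97 CPM in Hhex KO, which is 2 to 13 reads against 11 to 20 reads per library. Its interval reached from 0.00 to 2.04 around a log2 fold change of 1.02 (adjusted p = 0.270). Of the 75-base windows in its transcripts 35.7% also occur in Ifit3, and 41.1% of those of Ifit3 occur in another gene, mainly in Ifit3b, so reads of that pair cannot be told apart there and both values are uncertain. Ifit1, the founding member, was at 6.74, 5.98 and 7.24 CPM in control and at 8.35, 6.76, 9.96 and 8.59 CPM in Hhex KO. Only Hhex KO replicate 2 overlapped the control range, and the log2 fold change was 0.33 (SE 0.19, adjusted p = 0.392).

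**Figure D2:**
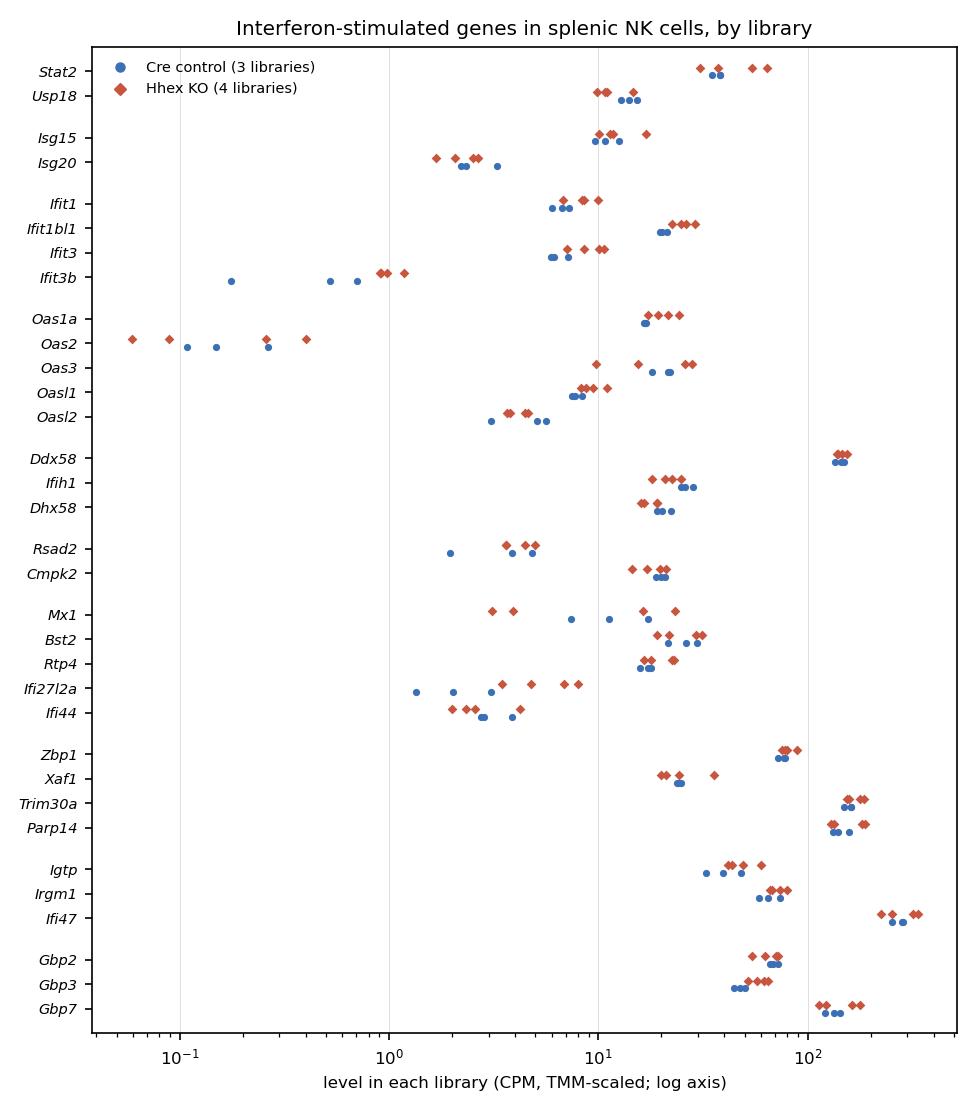
Level of each of the 33 members in every library (CPM on a log axis), with Cre control libraries as circles and Hhex KO libraries as diamonds, and genes grouped by role. The points of Ifi27l2a separate with Hhex KO to the right, those of Mx1 spread over a wide range in Hhex KO, and those of Oas2 lie at the far left below 1 CPM.

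The OAS enzymes sense double-stranded RNA and make the 2′-5′ oligoadenylates that activate RNase L. Oas1a, the main catalytic short form in mouse, was tightly placed in control at 16.9, 16.8 and 16.6 CPM. In Hhex KO it was at 19.4, 21.7, 24.2 and 17.4 CPM, each above control but with replicate 4 by less than 1 CPM. The log2 fold change of Oas1a was 0.30 (SE 0.14, adjusted p = 0.308), and 47.6% of its 75-base windows also occur in other genes, above all in its neighbour Oas1g. Oasl1, which in mouse holds down translation of Irf7, was at 8.39, 7.74 and 7.46 CPM in control and at 8.74, 9.39, 10.96 and 8.24 CPM in Hhex KO. Its groups overlapped through Hhex KO replicate 4, with a log2 fold change of 0.25 (SE 0.16, adjusted p = 0.487). Oas3, the long form, had nearly equal means but a wide spread in Hhex KO, from 9.74 to 28.2 CPM. Oasl2, a catalytic relative, was between 3.07 and 5.63 CPM in all 7 libraries. Oas2 had 1 to 7 reads per library.

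None of the RNA helicases that sense viral RNA was called, and their log2 fold changes lay between −0.29 and 0.01. Ddx58 encodes RIG-I, which sees short double-stranded RNA ends, and was at 135.6, 144.4 and 149.8 CPM in Cre control and at 145.8, 137.9, 153.9 and 139.6 CPM in Hhex KO. The groups overlapped, and the log2 fold change of 0.01 had a 95% interval from −0.22 to 0.24. Ifih1 encodes MDA5, the sensor of long double-stranded RNA. It was at 24.8, 25.96 and 28.4 CPM in control and at 22.6, 20.9, 24.9 and 18.1 CPM in Hhex KO, with the groups meeting at 24.8 and 24.9 CPM. Its log2 fold change of −0.29 (SE 0.14, adjusted p = 0.317) was the lowest among the members. Dhx58 encodes LGP2, which tunes both sensors, and was at 20.2, 22.3 and 19.2 CPM in control and 19.1, 16.1, 16.6 and 19.0 CPM in Hhex KO. Its highest Hhex KO library lay just under its lowest control library, with a log2 fold change of −0.22 (SE 0.13, adjusted p = 0.432).

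The guanylate-binding proteins (GBPs) coat and break open vacuoles that hold microbes, and they respond strongly to interferon gamma. Gbp3, on chromosome 3 from 142560026 to 142573209, was at 44.7, 50.1 and 47.6 CPM in control. In Hhex KO it was at 57.4, 64.6, 62.3 and 51.9 CPM, with every library above control. Its log2 fold change was 0.32 (SE 0.11, 95% interval 0.06 to 0.57), the second smallest p among the members, but the adjusted p was 0.173. Its neighbours had smaller differences. Gbp7 was at 134.1, 121.3 and 142.8 CPM in control and at 162.6, 123.0, 113.8 and 178.2 CPM in Hhex KO, a spread to both sides of control with a log2 fold change of 0.12 (SE 0.17, adjusted p = 0.803). Gbp2 lay between 66.0 and 72.4 CPM in control and between 54.6 and 72.1 CPM in Hhex KO. Of the 75-base windows of Gbp7, 11.3% occur in other genes, mostly in an overlapping predicted gene.

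The immunity-related GTPases act beside the GBPs on such vacuoles. Igtp, also called Irgm3, was at 32.7, 48.2 and 39.7 CPM in control and at 43.8, 49.3, 60.1 and 41.6 CPM in Hhex KO. The groups overlapped, and the log2 fold change was 0.28 (SE 0.17, adjusted p = 0.453). Ifi47, also called Irg47, was the member with the highest CPM, at 281.8, 286.9 and 253.7 in control and at 225.1, 336.1, 319.6 and 252.9 in Hhex KO. Its Hhex KO libraries fell on both sides of control, with a log2 fold change of 0.05 and a 95% interval from −0.32 to 0.41. Irgm1, a regulator of the family that also controls autophagy, was between 58.4 and 74.2 CPM in control and between 66.2 and 79.8 CPM in Hhex KO. All 3 had a positive log2 fold change and none was called.

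The members that act in cell death and signalling had small log2 fold changes, all between 0.06 and 0.15. Zbp1, the sensor of Z-form nucleic acid that can start necroptosis, was at 78.2, 72.5 and 76.8 CPM in control and at 79.7, 77.9, 75.7 and 88.9 CPM in Hhex KO. Its log2 fold change of 0.09 had a 95% interval from −0.15 to 0.32. Trim30a, a restraint on inflammatory signalling in mouse, was at 150.2, 161.3 and 160.6 CPM in control and at 154.9, 178.8, 185.5 and 158.5 CPM in Hhex KO. Its log2 fold change was 0.11 (95% interval −0.15 to 0.36), and its ranges overlapped. Parp14, a mono-ADP-ribosyltransferase, was at 131.7, 140.6 and 157.7 CPM in control and at 188.5, 129.7, 134.5 and 182.2 CPM in Hhex KO. Replicates 1 and 4 of Hhex KO lay above control and replicates 2 and 3 within or below it, and the log2 fold change was 0.15 (SE 0.16, adjusted p = 0.732). Xaf1, a partner of the apoptosis inhibitor XIAP, was at 23.8 to 24.9 CPM in control and 19.9 to 35.6 CPM in Hhex KO.

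The feedback and effector genes that are most used as markers of an interferon response had log2 fold changes of either sign. Usp18 encodes the protease that strips ISG15 from proteins and blocks signalling at IFNAR2, and it was at 14.1, 15.3 and 12.9 CPM in control and at 9.91, 10.9985, 14.6 and 10.8 CPM in Hhex KO. Only Hhex KO replicate 3 reached the control range, and the log2 fold change was −0.28 (SE 0.17, adjusted p = 0.439). Isg15, the ubiquitin-like modifier, was between 9.68 and 12.5 CPM in control and between 10.04 and 16.96 CPM in Hhex KO, with a log2 fold change of 0.19 (SE 0.21). Rsad2, which encodes viperin, was between 1.95 and 4.98 CPM in all libraries, and its neighbour Cmpk2, a mitochondrial nucleotide kinase, between 14.5 and 20.97 CPM. Bst2 encodes tetherin, which holds budding virus at the cell surface, and had nearly equal group means of 25.8 and 25.4 CPM. Isg20, a 3′-5′ exonuclease, and Ifi44, of unsettled function, stayed under 5 CPM with log2 fold changes of −0.22 and −0.17. Rtp4, a receptor transporter protein, was between 15.7 and 17.8 CPM in control and between 16.6 and 22.9 CPM in Hhex KO, and 10.5% of its windows occur in other genes.

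Per length of exon the members covered a wide range within the same cells. Between the highest and the lowest tested member the control means differed 474-fold. In Cre control, Ifi47 stood first at 110.9 CPM per kilobase (SD 7.25, n = 3), followed by Trim30a at 38.3 (SD 1.51), Bst2 at 28.6, Gbp2 at 27.4 and Gbp7 at 23.6. Bst2 (SD 4.43) and Gbp2 (SD 1.29) did not differ beyond their spread. Isg15 was at 14.6 and Ifit1 at 2.51 CPM per kilobase. At the other end, Rsad2 was at 0.82, Oasl2 at 0.72, Ifi44 at 0.52, Ifit3b at 0.23 and Oas2 at 0.04 CPM per kilobase. In Hhex KO the ends of the order were alike, with Ifi47 at 114.6 and Trim30a at 41.2 at the top and Ifi44 at 0.46 and Oas2 at 0.05 CPM per kilobase among the lowest.

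**Figure D3:**
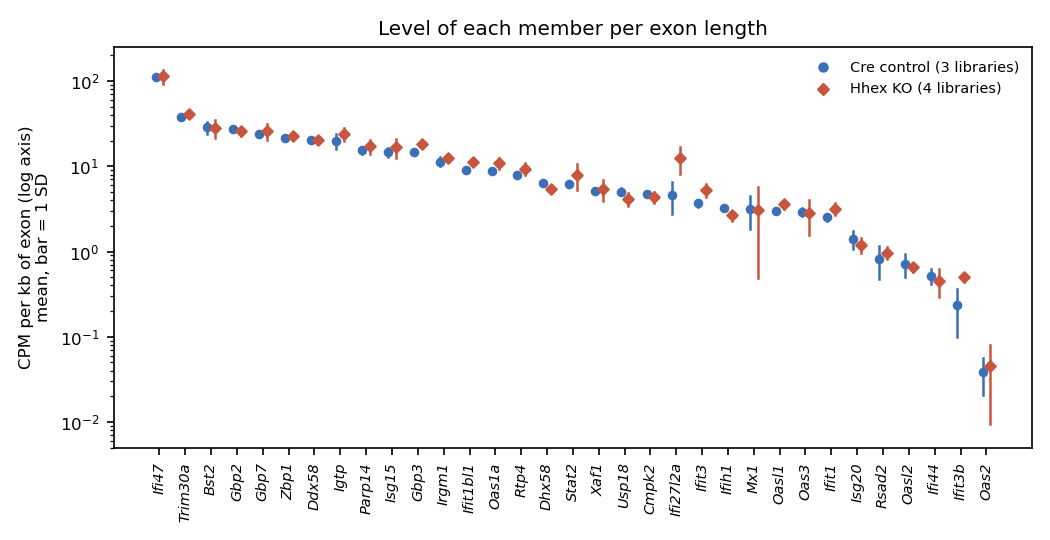
Mean level of each member per kilobase of exon (CPM per kb, log axis) in Cre control (circles, n = 3) and Hhex KO (diamonds, n = 4), with bars of 1 SD, ordered by the control mean. Ifi47 is highest at 110.9 and 114.6, Oas2 is lowest at 0.04 and 0.05, and Ifi27l2a and Ifit3b are the members whose symbols stand farthest apart.

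Added over the members, the level was 1420, 1478 and 1459 CPM in control and 1502, 1543, 1596 and 1556 CPM in Hhex KO. Hhex KO was above control in every library, and Ifi47, Parp14, Ddx58, Trim30a and Gbp7, the 5 members over 100 CPM in control, make up most of that sum. By the member, Hhex KO replicate 3 stood out. The median log2 difference of the members from the control mean was 0.23 in that library and 0.06 in each of the other 3 Hhex KO libraries. Isg15 at 16.96 CPM, Ifit1 at 9.96 CPM, Igtp at 60.1 CPM and Oas1a at 24.2 CPM all had their highest value there.

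In several members the values differed between Hhex KO libraries in a pattern that nuclear-retained RNAs also showed. Malat1, a long RNA that stays in the nucleus, was at 619, 243 and 382 CPM in control and at 918, 155, 138 and 650 CPM in Hhex KO, high in replicates 1 and 4. Neat1, another such RNA, was at 179, 68.7 and 112 CPM in control and at 192, 43.1, 35.3 and 395 CPM in Hhex KO. Mx1, whose product traps viruses in other strains but is truncated in C57BL/6, was high in the same libraries, at 17.2, 7.39 and 11.2 CPM in control and 16.4, 3.90, 3.12 and 23.3 CPM in Hhex KO. Its biological coefficient of variation was 0.61 against a median of 0.18 in the members, and its log2 fold change of −0.05 had an interval from −1.63 to 1.53. Stat2, the interferon signal carrier itself, was at 38.2, 35.02 and 38.2 CPM in control and at 54.4, 30.5, 37.2 and 64.4 CPM in Hhex KO, with a log2 fold change of 0.32 (SE 0.24, adjusted p = 0.550). Parp14 and Gbp7 were likewise high in Hhex KO replicates 1 and 4, and Oas3 was low there at 15.4 and 9.74 CPM. The control libraries followed this only in part. In control replicate 1, where Malat1 was highest in control, Mx1 was highest and Oas3 lowest at 18.1 CPM. Parp14, however, was lowest there at 131.7 CPM, Gbp7 was highest in replicate 3, and Stat2 was alike in replicates 1 and 3. These members were picked out after their values were seen.

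With the mean log2 level of Malat1 and Neat1 added to the edgeR fit as a covariate, an alternative chosen after seeing the data, 17.3% of all genes were called. Among the members Ifi27l2a was then called at 1.36 on the log2 scale (adjusted p = 0.00652) and Gbp3 at 0.30 (adjusted p = 0.0243), both higher. With limma-voom and sample quality weights 23.5% of all genes were called, and 5 members with them. Gbp3 at a log2 fold change of 0.39 (adjusted p = 0.0141), Oas1a at 0.41 (adjusted p = 0.0260), Ifi27l2a at 1.86 (adjusted p = 0.00416) and Ifit3 at 0.56 (adjusted p = 0.0315) were higher in that fit, and Mx1 at −1.35 (adjusted p = 0.0452) was lower. The part of nuclear RNA content in the member differences was not tested beyond these fits.

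**Figure D4:**
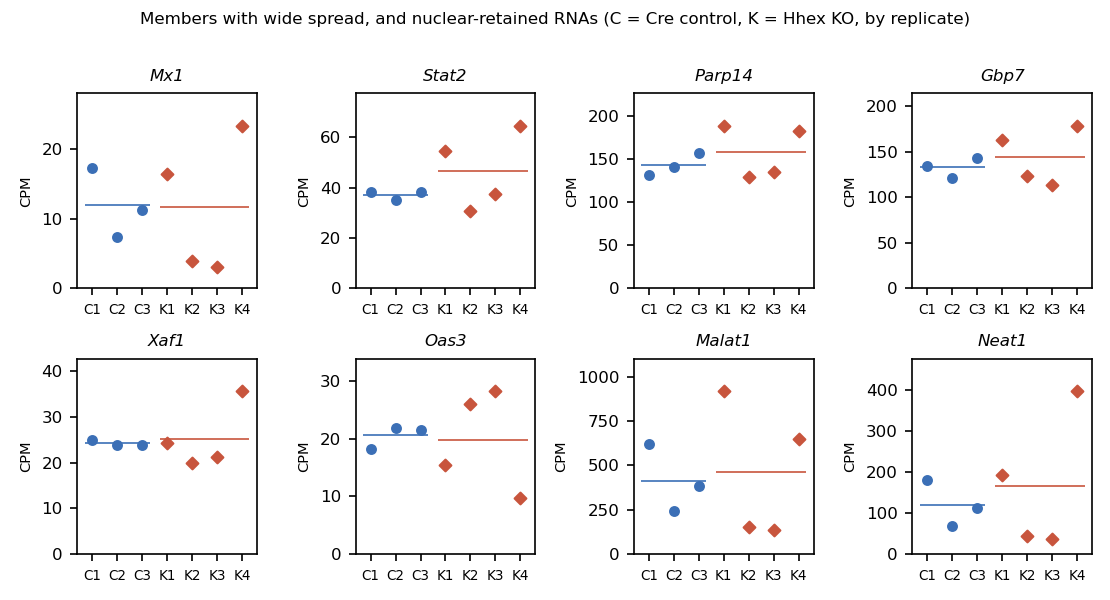
CPM in each library for 6 members with a wide spread in Hhex KO and for the nuclear-retained RNAs Malat1 and Neat1 (linear axes from 0; circles are Cre control, diamonds Hhex KO, and lines the group means). Among the Hhex KO libraries, Mx1, Stat2, Parp14 and Gbp7 are high where Malat1 is high, in replicates 1 and 4. Oas3 is lowest there, and Xaf1 is high in replicate 4 alone. In control, where Malat1 is highest in replicate 1, Parp14 is lowest in that replicate and Gbp7 is highest in replicate 3.

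Upstream of the members, the ligand that NK cells make was lower in each Hhex KO library. Ifng, interferon gamma, was at 266, 190.1 and 203 CPM in control and at 113, 90.4, 37.1 and 35.2 CPM in Hhex KO, with no overlap. Its log2 fold change was −1.67 (SE 0.41) with an adjusted p of 0.0640 in edgeR, and the adjusted p was 0.000468 in DESeq2 and 0.0440 in limma-voom. Without Hhex KO replicate 1 it was −2.02 (adjusted p = 0.0385 in edgeR). Leaving out any 1 other library did not give a call of Ifng (adjusted p from 0.0851 to 0.223 in edgeR). Of the 20 other interferon ligand genes listed, 19 had no read in any library and the highest count of the last was 1, so type I interferon transcripts were not detectable at this depth. Of the 75-base windows of Ifng 16.2% occur in 1 other annotated gene.

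The list of interferon receptors had 5 tested genes and no call, with a median log2 fold change of −0.23 beside 0.018 over all genes. Il10rb was at −0.30 (adjusted p = 0.188), Ifnar2 at −0.23 (adjusted p = 0.280), Ifnar1 at −0.26 (adjusted p = 0.464) and Ifngr1 at −0.08 (adjusted p = 0.827). Ifngr2, at 0 to 2.18 CPM, was at 0.19 (adjusted p = 0.957). Among 18 genes of JAK-STAT signalling and the IRF factors only Irf8 was called, beside 4.56% of all genes tested. Irf8, a transcription factor of the interferon regulatory family, fell from 828, 659 and 740 CPM to 491, 509, 471 and 424 CPM, a log2 fold change of −0.65 (SE 0.13, adjusted p = 0.0287). It was no longer called without any 1 of the control libraries or without Hhex KO replicates 2 or 3, at adjusted p-values from 0.0528 to 0.138. Trim24 at −0.48 (adjusted p = 0.190), Irf5 at −0.31 (adjusted p = 0.316) and Stat2 followed it by p.

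Of 18 negative regulators only Cish was called, and it rose, beside 4.56% of all genes tested called in either direction. The median of these regulators was −0.21. Cish, a cytokine-induced inhibitor that restrains interleukin 15 signalling in NK cells, went from 13.3, 12.1 and 13.996 CPM to 20.98, 29.5, 20.6 and 20.2 CPM (log2 fold change 0.80, SE 0.17, adjusted p = 0.0351). Its call was lost without any 1 library other than Hhex KO replicate 4, at adjusted p-values from 0.0531 to 0.146. Socs3 was at −1.23 on the log2 scale (adjusted p = 0.196) and Socs1 at −0.45 (adjusted p = 0.198). Trim24 belongs to this list as well. None of 21 tested nucleic acid sensors and adaptors was called, at a median of 0.09. Samhd1 at 0.42 (adjusted p = 0.1004), Ticam1 at −0.43 (adjusted p = 0.122), the member Ifih1 and Tlr7 at 1.15 (adjusted p = 0.401) had the smallest p-values there.

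The wider type I response outside the members had a share of calls near that of the transcriptome. Of its 73 tested genes 2 rose and 3 fell, beside 4.56% of all genes tested, with a median log2 fold change of 0.10. Tnfsf10, the death ligand TRAIL, rose from 35.1, 33.1 and 26.8 CPM to 72.5, 73.6, 97.8 and 57.3 CPM (log2 fold change 1.25, SE 0.19, adjusted p = 0.00954), a call lost without Cre control replicate 3 (adjusted p = 0.0585). Trim34b rose from below 1 CPM to between 2.06 and 4.66 CPM (log2 fold change 2.86, adjusted p = 0.0123), but it shares 42.5% of its windows with Trim34a, which was at −0.67 (adjusted p = 0.250). Its call was lost without Cre control replicates 2 or 3 (adjusted p = 0.0518 and 0.0838).

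Trim30d, the gene next to the member Trim30a, fell from 31.5, 30.1 and 30.8 CPM to 11.3, 8.48, 12.2 and 19.8 CPM (log2 fold change −1.26, SE 0.25, adjusted p = 0.0269), while Trim30a had a log2 fold change of 0.11. Of the windows of Trim30d 5.25% also occur in Trim30a. Slfn8, a Schlafen gene, fell from 93.3, 69.0 and 84.2 CPM to 16.6, 4.64, 12.6 and 26.2 CPM (log2 fold change −2.47, SE 0.46, adjusted p = 0.0243). Phf11b fell by 0.44 on the log2 scale (adjusted p = 0.0469), and 26.8% of its windows occur in related genes. The call of Trim30d was lost without any 1 control library or without Hhex KO replicates 1 or 3 (adjusted p from 0.0704 to 0.119). That of Slfn8 was lost in the same 5 cases (0.0554 to 0.0993), and that of Phf11b without any 1 library other than Hhex KO replicate 4 (0.0725 to 0.195).

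The list of interferon-gamma-induced GTPases holds further genes that are not members. Over the 11 tested genes of that list that are not members the median log2 fold change was 0.22. Of all 17 tested genes of the list 2 were called, both higher and neither a member, beside 4.56% of all genes tested. Iigp1, the immunity-related GTPase Irga6, went from 0.90, 0.97 and 1.13 CPM to 3.56, 2.69, 4.54 and 2.04 CPM (log2 fold change 1.67, SE 0.34, adjusted p = 0.0309). Tgtp1 was at 0.67 to 1.14 CPM in control and at 2.06 to 2.75 CPM in Hhex KO (1.35, SE 0.30, adjusted p = 0.0417), and 77.2% of its windows occur elsewhere, mainly in Tgtp2. Iigp1 was not called without any 1 control library or without Hhex KO replicates 1 or 3 (adjusted p from 0.0654 to 0.148), nor Tgtp1 without any 1 library (0.0552 to 0.183). Gvin1 was at −1.37 (adjusted p = 0.108). None of the 22 class I presentation genes was called, at a median of 0.03, with Psmb9 at 0.30 (adjusted p = 0.240), H2-Q7 at 0.30 (adjusted p = 0.243), Tap1 at 0.24 (adjusted p = 0.331) and Psme2 at 0.22 (adjusted p = 0.531) leading by p.

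**Figure D5:**
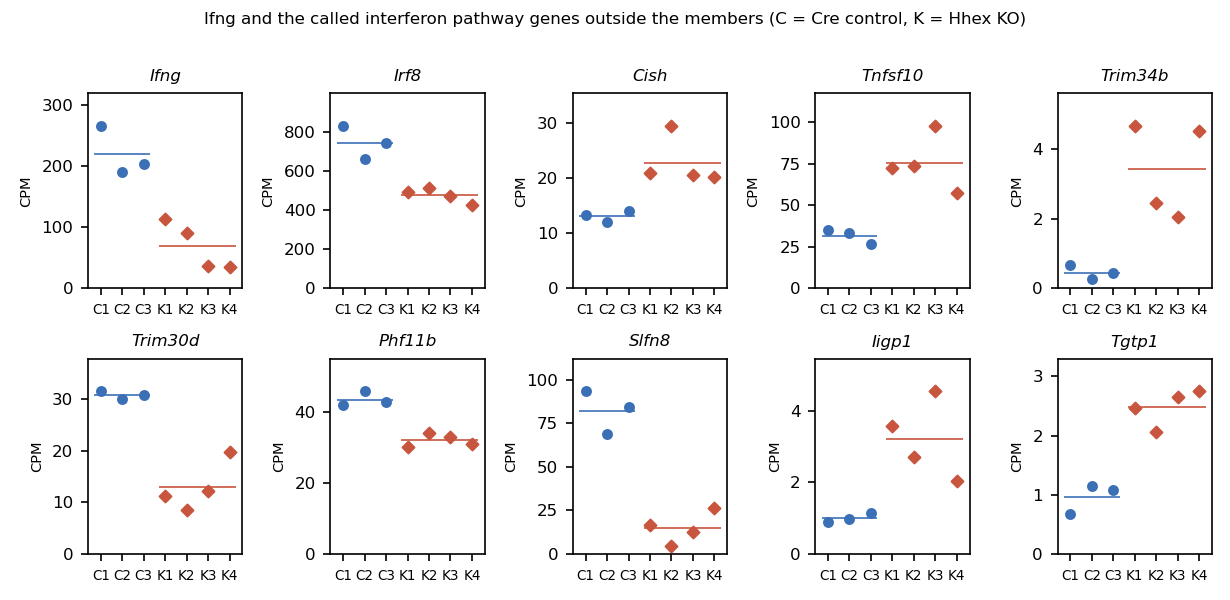
CPM in each library for Ifng and the 9 called genes of the interferon lists that are not members (linear axes from 0; circles are Cre control, diamonds Hhex KO, lines the group means). Irf8, Trim30d, Phf11b and Slfn8 are lower in every Hhex KO library, Cish, Tnfsf10, Trim34b, Iigp1 and Tgtp1 are higher, and Ifng, lower in every Hhex KO library, did not pass the threshold in edgeR.

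Total counts ran from 10589915 to 18456404 per library. Hhex itself was at 96.1, 95.6 and 93.5 CPM in control and at 58.0, 56.5, 54.2 and 64.8 CPM in Hhex KO, lower but still read in every Hhex KO library (log2 fold change −0.70, SE 0.10, adjusted p = 0.00768). The 11 NK markers, Ncr1 and Klrb1c among them, were all expressed, and together they gave 20041 to 24567 CPM in control and 16011 to 19745 CPM in Hhex KO. None of them was called in either direction. Gzma, the highest of them, had means of 8063 CPM in control and 6334 CPM in Hhex KO. Ncr1, Itga2, Eomes and Tbx21 had log2 fold changes of −0.09, −0.003, −0.006 and 0.05. Markers of other cells that carry interferon-stimulated genes were present at low levels. Those of plasmacytoid dendritic cells added up to 127 to 143 CPM in control and 104 to 145 CPM in Hhex KO, with 1 of 6 tested markers (Cox6a2) called higher and Siglech at 2.12 CPM or less. Most of that sum came from Tcf4 and Runx2, which were at −0.21 and −0.20 on the log2 scale (adjusted p = 0.432 and 0.456). The other markers of the list had higher means in Hhex KO, among them Cox6a2 at 2.74 against 8.71 CPM, Spib at 0.74 against 2.04 CPM and Ly6d at 0.52 against 1.47 CPM. Those of monocytes and macrophages added up to 95.4 to 199 and 111 to 415 CPM, with 1 of 11 (Ctss) called higher. Those of neutrophils added up to 25.5 to 63.3 and 15.1 to 521 CPM, highest in Hhex KO replicate 2. B cell markers added up to 215 to 261 and 246 to 407 CPM (Cd79b called higher) and T cell markers to 274 to 323 and 390 to 455 CPM (Trbc2 called higher), and no listed marker of these types was at 0 in all libraries. Of 15 listed proliferation genes 6 were called higher in Hhex KO, at a median log2 fold change of 1.72. These counts of called genes stand beside 4.56% of all genes tested, called in either direction. The part of these marker and proliferation differences in the member levels was not tested.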

How the data were processed

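RNA of sorted splenic NK cells was sequenced as single-end reads of 75 bp from a directional library kit, per the labels' protocols. STAR, featureCounts and the mm10 build are named in the submitters' processing notes, while neither versions nor the strand setting nor the annotation release is given there or in the labels, and reads from overlapping or antisense genes may therefore be misassigned. The authors deposited raw counts per gene with no normalization, 1 column per library, and 0 columns were left unused. Columns were matched to samples by the titles in the labels, and 99.8% of the gene identifiers matched the GENCODE M21 annotation on GRCm38, which gave coordinates (1-based) and exon lengths. The design text in the labels calls the libraries biological replicates and does not say whether each is a separate animal, so the p-values reflect only how much these libraries vary, in part perhaps for technical reasons. Replicate libraries differed far beyond sampling noise, with a chi-square per degree of freedom of 10.4 to 71.5, and each counts as 1 replicate. Between control libraries it was 14.45 to 16.1. Among Hhex KO libraries it was 10.4 between replicates 2 and 3, and 25.9 between replicates 1 and 4. Between the other pairs of Hhex KO libraries it was 62.8 to 71.5.

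Low genes were removed with filterByExpr (edgeR 4.0.16 in R 4.3.3, minimum count 10, minimum total 15), scaled by TMM and compared with a robust quasi-likelihood F test. P-values were adjusted by Benjamini-Hochberg over the 12161 genes tested, and no p was adjusted over the members alone. SE is the size of the log2 fold change divided by the square root of F. The members, the gene lists and the tests were chosen with earlier results of these data known. By rule, values in every library are given for the 12 members with the smallest p and the 6 with the highest level, promoters are printed for the 4 members with the smallest p where a RefSeq entry exists, and of each list the called genes and the 4 with the smallest p are named. Windows of 75 bases shared between the transcripts of different genes were counted in GENCODE M21. The alternatives were scaling by RLE or upper quartile, omitting the filter, a stricter filter (10 CPM in 3 libraries), DESeq2 1.42.0, voom from limma 3.58.1, plain or with sample quality weights, a replicate block, leaving out each library, and a nuclear-RNA covariate added after seeing the data.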

Additional observations from a re-analysis of the deposited data

How the results depend on the processing

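The median log2 fold change of the members stayed positive in every alternative, between 0.08 without Cre control replicate 1 and 0.17 with sample quality weights. Of 503 member values under the alternatives 30 had the other sign, in 12 members, and none of these 30 values was called. Mx1 is among these members, and with sample quality weights it was called lower, the sign it had in the main fit. Without a filter on low counts and with DESeq2, 1 member was called higher (Ifi27l2a). With sample quality weights in limma-voom 4 were called higher and 1 lower, and with the nuclear-RNA covariate 2 were called higher. Leaving out 1 library gave 0 to 1 members called higher, the 1 without Hhex KO replicate 4, and 0 called lower. The stricter filter left 23 members to test and called none.

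Outside the members, 5 listed interferon pathway genes were called higher and 4 lower, where 4.56% of all genes tested were called. The higher count was 2 with the stricter filter, 19 with sample quality weights and 16 with the covariate. The lower count was 2 with no filter, 8 with DESeq2, 23 with sample quality weights and 13 with the covariate. Leaving out 1 library gave 0 to 5 higher, with 0 without Cre control replicate 3, and 0 to 7 lower, with 7 without Hhex KO replicate 4. Over all genes, 554 were called with all 7 libraries (4.56%), 369 with the stricter filter (4.28%) and 614 with no filter (2.64%). DESeq2 called 1094 (9.0%), sample quality weights 2859 (23.5%) and the covariate 2099 (17.3%). The share of the pathway genes called was not computed for these fits, so their counts cannot be set against these shares. Leaving out a library gave 141 (Cre control replicate 1) to 818 (Hhex KO replicate 4).

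With a replicate block on the libraries numbered 1 to 3, 774 genes were called, 1 member was called higher (Ifi27l2a) and 7 pathway genes lower. That fit leaves out Hhex KO replicate 4. Without that library and with no block, 818 genes were called, and Ifi27l2a was again the only member called. The numbers were not used to pair the samples in the main fit. The correlations of the deviations of same-numbered libraries were 0.33, 0.51 and −0.10. Libraries numbered 1 and 2 correlated best with their own number and those numbered 3 did not, so this check cannot settle whether the samples were paired. At this depth and spread the 95% interval of 18 members reached beyond a 1.5-fold change.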
